A study of Homo sapiens with 4 samples.

Results

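The clustered protocadherin genes are 3 neighbouring arrays, alpha, beta and gamma, on the plus strand of human chromosome 5, between positions 140786136 and 141512981 of GRCh38. They were taken here as the protein-coding genes whose symbols start with PCDHA, PCDHB or PCDHG and that had at least 10 reads summed over the 4 libraries. The table listed 53 such genes, and 28 reached 10 reads: 7 of 15 alpha, 9 of 16 beta and 12 of 22 gamma genes. They stand among 19972 genes with at least 10 reads, of 58735 in the table.

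RNA was sequenced from PBRM1 CRISPR KO cells of HEK293T, an established line of human embryonic kidney origin. PBRM1 belongs to PBAF, a complex that moves nucleosomes. All libraries came from these knockout cells 48 h after transfection with a plasmid for GFP-tagged PBRM1: P1048R, T1202K or C1233W, which the series title places in the BAH domain, or the unaltered protein (WT). There was 1 library per construct, so every difference below is a difference between libraries and has no replicate check. Whether the knockout cells were a clone or a pool, and what share of them took up a plasmid, the sources used here do not give, and a library without a plasmid was not analysed here.

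Clustered protocadherins are cell adhesion proteins best known from neurons, where each cell uses a small set of them as an identity code. In the alpha and gamma clusters each gene has its own large first exon, with its own promoter, which is spliced to constant exons shared by the whole cluster. Beta genes have a single coding exon and no constant exons. Many of the promoters hold a conserved element with the core letters CGCT that binds CTCF, and CTCF and cohesin loop a distant enhancer to the promoter in use. The C-type genes at the ends of the alpha and gamma clusters (PCDHAC1, PCDHAC2, PCDHGC3, PCDHGC4 and PCDHGC5) are controlled differently from the others and are expressed more uniformly across neurons.

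The constant exons matter for the counts, since a read that falls on one belongs to every gene of its cluster. In GENCODE 29 the first alpha constant exon (chr5:140978949-140979007) was annotated in 15 of 15 alpha genes and the first gamma constant exon (chr5:141494807-141494865) in 22 of 22 gamma genes. Both are 59 bases long and encode the start of the shared intracellular tail. Their sequences from GENCODE 29, 5′ to 3′ on the plus strand, show how far the 2 clusters share this exon, with capitals for the bases that are the same at the same position in the other cluster:
alpha constant exon 1: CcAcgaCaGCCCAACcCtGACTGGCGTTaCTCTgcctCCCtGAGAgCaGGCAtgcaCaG
gamma constant exon 1: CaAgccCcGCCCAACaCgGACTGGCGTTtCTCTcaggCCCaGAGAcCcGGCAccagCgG
The pair was identical at 39 of 59 positions (66.1%). The second constant exons, at chr5:140982475-140982563 and chr5:141505393-141505481, were identical at 29 of 89 positions (32.6%). The last constant exon, which holds the 3′ untranslated region, spanned 2718 bases in alpha (14 of 15 genes) and 2033 bases in gamma (21 of 22 genes). PCDHA6, PCDHA7 and PCDHGA8 had 0 reads in all 4 libraries although they carry constant exons, so reads on these exons were not credited to every gene of a cluster. The counts of alpha and gamma genes therefore rest on each gene's own exons, and levels are given below per kilobase of exon that no other annotated gene shares.

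The promoters of the best-covered members of each cluster, and of a beta gene that passed the size rule below, are shown because the CTCF element lies there. Each is the 120 bases before the gene's start in RefSeq (GRCh38.p14, plus strand), with CGCT in capitals:
PCDHA10, chr5:140855777-140855896: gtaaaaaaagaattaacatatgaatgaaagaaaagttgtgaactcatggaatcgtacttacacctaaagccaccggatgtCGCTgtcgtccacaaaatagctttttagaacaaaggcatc
PCDHAC2, chr5:140966356-140966475: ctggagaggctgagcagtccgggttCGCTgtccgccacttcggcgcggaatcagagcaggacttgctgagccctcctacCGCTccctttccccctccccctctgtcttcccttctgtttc
PCDHB13, chr5:141213799-141213918: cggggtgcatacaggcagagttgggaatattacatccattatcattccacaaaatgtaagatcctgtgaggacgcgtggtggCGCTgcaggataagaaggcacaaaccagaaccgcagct
PCDHB15, chr5:141245275-141245394: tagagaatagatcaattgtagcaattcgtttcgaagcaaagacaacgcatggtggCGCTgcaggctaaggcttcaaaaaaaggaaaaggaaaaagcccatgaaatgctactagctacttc
PCDHB16, chr5:141182267-141182386: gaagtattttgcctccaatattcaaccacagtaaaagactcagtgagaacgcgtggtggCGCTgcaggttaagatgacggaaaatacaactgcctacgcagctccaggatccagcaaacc
PCDHGA11, chr5:141420931-141421050: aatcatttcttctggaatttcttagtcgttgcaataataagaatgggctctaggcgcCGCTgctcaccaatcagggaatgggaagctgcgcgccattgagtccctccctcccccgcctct
PCDHGC3, chr5:141475846-141475965: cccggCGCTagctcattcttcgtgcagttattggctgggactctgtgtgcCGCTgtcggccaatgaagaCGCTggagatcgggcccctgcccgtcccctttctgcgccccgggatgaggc
RefSeq gave a promoter for 26 of the 28 genes, all except PCDHA13 and PCDHB11. The letters CGCT stood in these 120 bases, on the gene's strand, in 23 of 26 members (88.5%), against 31.8% of 35116 promoters of all genes. In 300 bases around the start, on either strand, the figures were 25 of 26 (96.2%) and 70.0%. PCDHA9, PCDHB8 and PCDHGB2 had no CGCT in the 120 bases. The printed beta promoters share a longer run, GGTGGCGCT, which was picked out after they were seen. It occurred on either strand of the 300 bases in 8 of 8 beta, 0 of 6 alpha and 0 of 12 gamma members with a promoter entry, and in 0.501% of all promoters. In PCDHB8 it began 2 bases before the start and so ran past the end of the 120 bases. TATAAA stood in 4 of 26 members (15.4%) and in 11.5% of all promoters, on either strand of the 300 bases. A match is a run of letters and not a site at which a factor was measured: PCDHAC2, for example, is known to lack the CTCF element of its neighbours, yet its window holds CGCT.

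The libraries held 11205322 counted reads for P1048R, 10993748 for T1202K, 10348552 for C1233W and 10246250 for WT. PBRM1 itself stood at 8805 CPM in P1048R, 15262 in T1202K, 60509 in C1233W and 22768 in WT. CPM is the usual rate of reads against library size, here scaled by TMM. Gene counts cannot separate reads of the plasmid from those of the disrupted gene. A floor of 3 reads lay between 0.251 and 0.321 CPM. All 10 markers of the HEK293T line were detected, at a summed 1015 to 1494 CPM. Neuronal markers summed to 30.1 to 42.9 CPM with DCX at 0, and blood markers to 2.68 to 4.6 CPM with HBB and CD3E at 0. Endothelial and fibroblast markers summed to 17.0 to 32.9 CPM, and markers of keratinocytes and carcinoma lines to 84.1 to 120 CPM.

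Clustered protocadherin RNA was scarce in every library. The 28 members together had 362 reads in P1048R, 415 in T1202K, 470 in C1233W and 456 in WT, or 0.00323%, 0.00377%, 0.00454% and 0.00445% of all counted reads. Only 13 members reached 1 CPM in any library, and 9 had at least 50 reads over the 4 libraries. The 3 best-covered genes, PCDHGC3, PCDHGA11 and PCDHA10, carried 54.4% of the members' reads in P1048R, 52.8% in T1202K, 49.1% in C1233W and 56.1% in WT. The best-covered of them, PCDHGC3, ranked only 10776th of 19972 genes by reads.

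**Figure D1:**
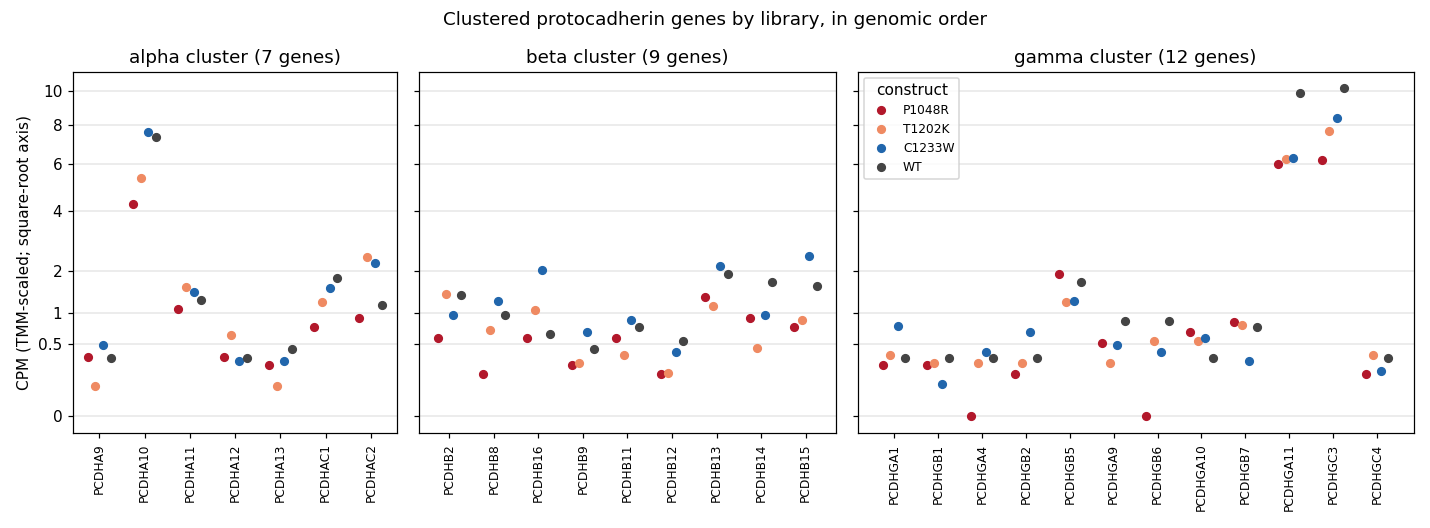
Level of each of the 28 clustered protocadherin genes in CPM (TMM-scaled, square-root axis), 1 point per library, in genomic order within the alpha, beta and gamma clusters. PCDHA10, PCDHGA11 and PCDHGC3 lie between 4.27 and 10.2 CPM in every library, and no other member exceeds 2.42 CPM.

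PCDHGC3, a C-type gamma gene, had 74 reads in P1048R, 87 in T1202K, 87 in C1233W and 95 in WT. Its level was 6.20, 7.68, 8.42 and 10.2 CPM, lowest in P1048R and highest in WT. PCDHGA11, a gamma A gene, had 72, 71, 65 and 92 reads, or 6.03, 6.27, 6.29 and 9.84 CPM, so the mutants lay close together and WT above them. PCDHA10, an alternate alpha gene, had 51, 61, 79 and 69 reads, or 4.27, 5.39, 7.64 and 7.38 CPM. Here C1233W and WT lay together, and P1048R and T1202K below them.

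Per kilobase of unshared exon, averaged over the 4 libraries, PCDHGC3 led with 2.5 CPM, followed by PCDHGA11 with 1.96. PCDHA10 came to 0.646, PCDHGB5 to 0.574, PCDHAC2 to 0.525 and PCDHA11 to 0.403. The median member was at 0.328 CPM per kilobase in alpha, 0.288 in beta and 0.128 in gamma. The gamma cluster thus held the 2 highest members and also the lowest median, with PCDHGA4 at its low end at 0.0899. The lowest member of all was PCDHA9, at 0.0464 CPM per kilobase. Annotated exons of PCDHA10 come to 9555 unshared bases, long for the cluster, which lowers its level per length.

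The rest of the alpha cluster was lower. PCDHAC2, a C-type gene, had 11 reads in P1048R, 27 in T1202K, 23 in C1233W and 11 in WT, so T1202K and C1233W were the higher pair. PCDHAC1, the other C-type alpha gene, had 9, 14, 16 and 17 reads, lowest in P1048R. PCDHA11 had 13, 18, 15 and 12 reads and PCDHA12 had 4, 7, 3 and 3. PCDHA9, with 4, 1, 5 and 3 reads, and PCDHA13, with 3, 1, 3 and 4, passed the threshold of 10 by 3 reads or fewer.

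Among the beta genes PCDHB13 had the most reads, with 16 in P1048R, 13 in T1202K, 22 in C1233W and 18 in WT. PCDHB15 had 9, 10, 25 and 15 reads, and PCDHB2 had 7, 16, 10 and 13. PCDHB16 had 7, 12, 21 and 6 reads, with C1233W well above WT. PCDHB14 had 11, 5, 10 and 16 reads, lowest in T1202K, and PCDHB8 had 2, 8, 13 and 9, lowest in P1048R. PCDHB11 had 7, 4, 9 and 7 reads, PCDHB9 had 3, 3, 7 and 4, and PCDHB12 had 2, 2, 4 and 5. Beta genes are close copies of each other, and a median of 19.5% of a member's 50-base words also stood in another gene, against 6.94% in alpha and 7.28% in gamma outside the constant exons. PCDHB8 shared 49.3% of its words with any other gene and 33.0% of its words with PCDHB13. The sources used here do not say how reads with several alignments were counted, so single beta counts are uncertain to that extent.

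In the gamma cluster PCDHGB5 followed the 2 leading genes with 23 reads in P1048R, 14 in T1202K, 13 in C1233W and 16 in WT, and 20.4% of its words were shared, mostly with PCDHGB4. PCDHGB7 had 10, 9, 3 and 7 reads, PCDHGA10 had 8, 6, 6 and 3, and PCDHGA9 had 6, 3, 5 and 8. PCDHGB6 had no read in P1048R, and 6, 4 and 8 in the others. PCDHGA1 had 3, 4, 8 and 3 reads, PCDHGB2 had 2, 3, 7 and 3, PCDHGA4 had 0, 3, 4 and 3, and PCDHGB1 had 3, 3, 1 and 3. The C-type gene PCDHGC4 had 2, 4, 2 and 3 reads, far below its neighbour PCDHGC3, and neither shares a 50-base word with another gene outside the constant exons. The third gamma C-type gene, PCDHGC5, stayed under the threshold with 0, 0, 0 and 2 reads.

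The 25 listed genes under 10 reads were 8 alpha, 7 beta and 10 gamma genes. PCDHA8 missed the threshold with 9 reads in all (2 in P1048R, 2 in T1202K, 4 in C1233W and 1 in WT), and PCDHA1, PCDHB4 and PCDHGA12 with 8 each. PCDHGA5 and PCDHGA7 had 7 reads in all, PCDHB3, PCDHB6, PCDHGB3 and PCDHGA6 had 6, and PCDHB5, PCDHB10 and PCDHGA2 had 5. Just inside it stood PCDHGB1 and PCDHGA4 with 10 reads, PCDHA13 and PCDHGC4 with 11, PCDHA9 and PCDHB12 with 13 and PCDHGB2 with 15. PCDHA6, PCDHA7, PCDHGA8 and PCDHB1, the atypical first beta gene, had 0 reads in every library, which allows up to 3 reads in each.

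The comparison of each mutant with WT addresses whether re-expression of a mutant PBRM1 leaves a different transcriptome from re-expression of WT. PBRM1 RNA also differed between the constructs, from 8805 CPM in P1048R to 60509 CPM in C1233W. Mutation and PBRM1 level therefore cannot be told apart in these comparisons. With 1 library each no p-value was computed. Instead a size rule was used: a difference of 2-fold or more, in either direction, with a 95% counting interval of the log2 ratio that leaves out 0. For the ratio, 0.5 was added to each count. Intervals cover counting error only, since PCR copies are not independent molecules and the variation between cultures is not measured. The 3 comparisons share the WT library, so an unusual WT value would enter each of them. In bulk RNA, fewer cells that express a gene and less RNA per cell cannot be told apart.

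With P1048R, 3 of 28 members passed the rule, all lower than WT, and 25 did not. The rule was passed by 6.62% of the 19972 genes and by 10.2% of the 9197 genes with no more reads than PCDHGC3. The members' count in either direction, 3 of 28, is near the second share. Those 9197 genes share the members' lower and upper read limits but were not matched for depth within them. Of them, 466 passed as higher and 473 as lower. PCDHAC1 had a log2 ratio of -1.23 (-2.62 to -0.02), on 9 reads in P1048R against 17 in WT, and did not pass when libraries were scaled by total counts or by DESeq2 size factors. PCDHB8 had -2.28 (-5.77 to -0.25), on 2 reads against 9. PCDHGB6, with 0 reads in P1048R and 8 in WT, was 3.41-fold lower with the 0 set to the floor of 3 reads. This bound takes the 8 reads as exact, and the upper end of the counting interval was a log2 ratio of -1.12.

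The best-covered members were lower in P1048R by less than 2-fold. PCDHA10 had a log2 ratio of -0.79 (-1.34 to -0.25), PCDHGC3 of -0.71 (-1.17 to -0.26) and PCDHGA11 of -0.70 (-1.17 to -0.25). Over all members the ratio was below 0 in 23 of 28, against 10611 of 19972 genes and 4968 of the 9197 genes. The median ratio was -0.71, against -0.05 over all genes and -0.10 over the 9197 genes. The median stayed at -0.71 over 27 members with PCDHGB6 at its bound and PCDHGA4, which had 0 reads against 3, left out. For 22 of 28 members the interval contained 0, against 11581 of 19972 genes and 7758 of the 9197. By cluster the medians were -0.35 in alpha, -0.87 in beta, where 9 of 9 ratios lay below 0, and -0.71 in gamma. PCDHB15, on 9 reads in P1048R against 15 in WT, had -1.06 (-2.46 to 0.20), and PCDHB2, on 7 against 13, had -1.2 (-2.81 to 0.19). The highest ratio was that of PCDHGA10, 0.93 (-1.0 to 3.61), on 8 reads against 3.

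With T1202K, 1 of 28 members passed the rule, against 4.68% of all genes and 7.73% of those in the members' read range. It was PCDHB14, lower with a log2 ratio of -1.86 (-3.76 to -0.44) on 5 reads in T1202K and 16 in WT. PCDHGA11 had -0.65 (-1.12 to -0.19), PCDHA10 -0.45 (-0.98 to 0.06) and PCDHGC3 -0.40 (-0.84 to 0.03). PCDHAC2 stood at 0.98 (-0.04 to 2.18), the highest of the members, and would pass on total counts. The median over the members was -0.45, against -0.02 over all genes and -0.12 in the read range. Below 0 lay 19 of 28 ratios, against 10343 of 19972 genes and 5077 of the 9197 in the read range.

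With C1233W, 1 of 28 members passed, against 4.93% of all genes and 8.91% of those in the read range. It was PCDHB16, higher with a log2 ratio of 1.58 (0.30 to 3.26) on 21 reads in C1233W and 6 in WT. PCDHGA11 was again below WT by less than 2-fold, at -0.64 (-1.13 to -0.17). PCDHGC3, at -0.27 (-0.71 to 0.16), PCDHA10, at 0.05 (-0.43 to 0.54), and PCDHAC2, at 0.89 (-0.18 to 2.10), had intervals that contain 0. Ratios lay below 0 in 14 of 28 members, against 9977 of 19972 genes and 3888 of the 9197 in the read range. The median was -0.05, against 0.00 over all genes and 0.16 in the read range. Median ratios were 0.05 in alpha, 0.20 in beta and -0.53 in gamma.

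WT did not differ from all 3 mutants in the same direction by the size rule in any of the 28 members, while 1.32% of all genes did so. PCDHGA11 came closest, with WT above each mutant by less than 2-fold and intervals that leave out 0 in each comparison. A member needed 2.0- to 3.24-fold, with a median of 2.30-fold, above its WT count to pass upward in P1048R. The low end, where PCDHB2, PCDHGA11 and PCDHGC3 stood, is the 2-fold of the rule itself. The high end was shared by PCDHA9 and the other members with 3 reads in WT, and comes from their few reads. Downward these members could not pass in P1048R at all. Even PCDHGA4, with 0 reads in P1048R against 3 in WT, had an interval that ran up to 0.92. That they were not called lower was therefore set by their depth.

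**Figure D2:**
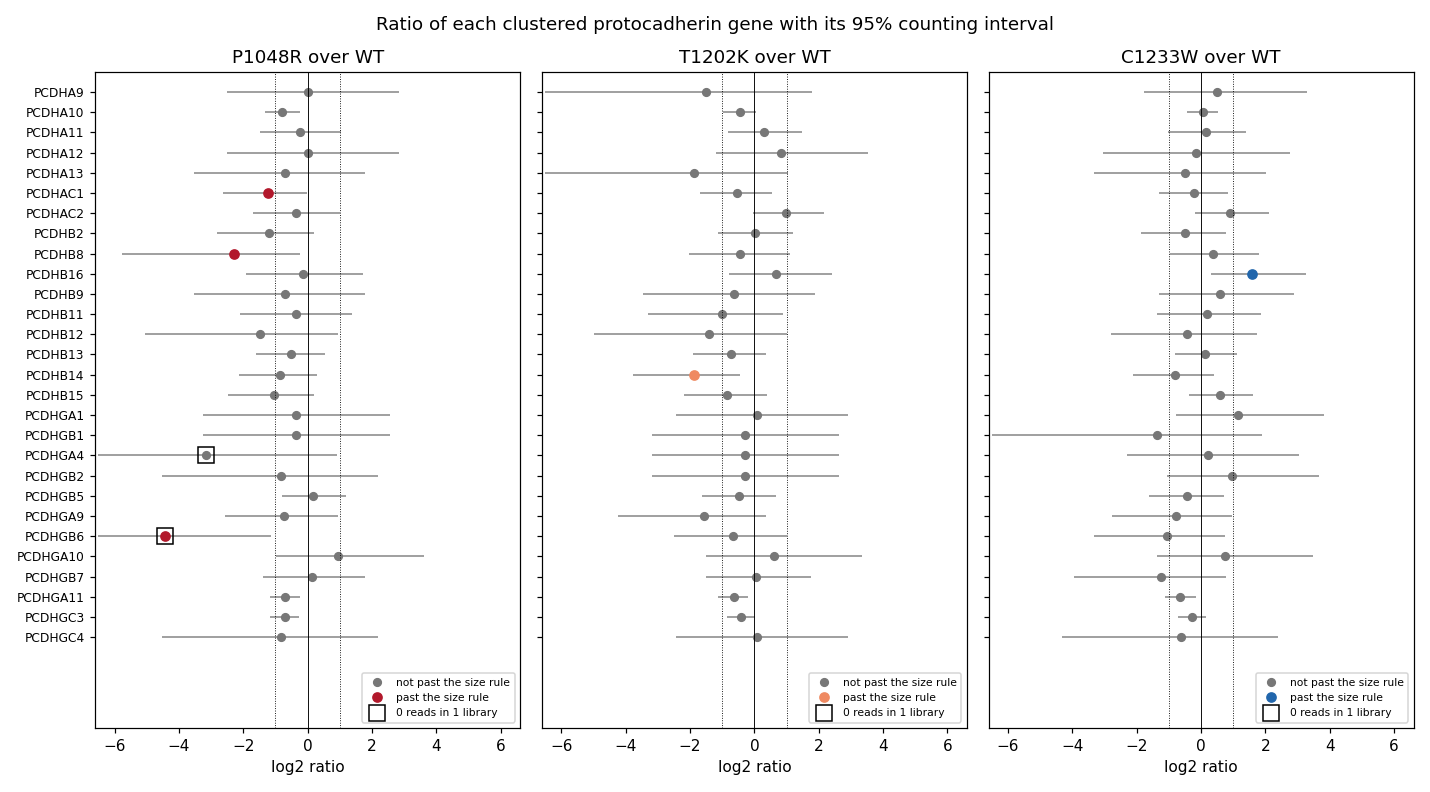
log2 ratio of each of the 28 genes, each mutant over WT, with its 95% counting interval (lines end at the axis where the interval runs past it). Coloured points passed the size rule, dotted lines mark 2-fold, and squares mark genes with 0 reads in P1048R, whose point depends on the 0.5 added; 23 of 28 points lie below 0 with P1048R, 19 with T1202K and 14 with C1233W.

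Summed over a cluster the reads gave narrower intervals. The alpha sum was 95 reads in P1048R, 129 in T1202K, 144 in C1233W and 119 in WT, or 7.96, 11.4, 13.9 and 12.7 CPM. The beta sum was 64, 73, 121 and 93 reads, or 5.36, 6.45, 11.7 and 9.95 CPM. The gamma sum was 203, 213, 205 and 244 reads, or 17.0, 18.8, 19.8 and 26.1 CPM. P1048R was thus the lowest library for each cluster in CPM, C1233W the highest for alpha and beta, and WT the highest for gamma.

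In P1048R all 3 sums were below WT, with log2 ratios of -0.68 (-1.08 to -0.28) for alpha, -0.89 (-1.37 to -0.42) for beta and -0.62 (-0.89 to -0.34) for gamma. Without PCDHA10 the alpha ratio was -0.54 (-1.16 to 0.08), an interval that contains 0. Summed over the 28 members P1048R held 0.622 times the WT level (log2 ratio -0.69, -0.89 to -0.48). In T1202K beta and gamma were below WT, at -0.62 (-1.09 to -0.17) and -0.47 (-0.74 to -0.20), while alpha was at -0.16 (-0.53 to 0.21), and at 0.16 (-0.38 to 0.72) without PCDHA10. In C1233W gamma was below WT, at -0.40 (-0.67 to -0.12), while alpha was at 0.13 (-0.23 to 0.49) and beta at 0.23 (-0.17 to 0.64). None of these 9 sums differed from WT by 2-fold. Scaled by total counts, the intervals of beta in T1202K and of gamma in C1233W contained 0, and those of the other sums that left out 0 still did so. The sum of the 10 HEK293T markers was also lowest in P1048R, at 1015 CPM, with 1220 in T1202K, 1259 in C1233W and 1494 in WT. VIM (536 CPM in P1048R and 709 in WT) and NEFM (172 and 345) held most of that sum. Singly, PAX2, EMX2 and EYA1 stood above WT in P1048R and the other markers of the line below it. The 5 endothelial and fibroblast markers summed to 17.0 CPM in P1048R, 24.1 in T1202K, 32.9 in C1233W and 31.9 in WT. Most of this was COL1A1, at 15.8, 22.4, 30.2 and 30.1 CPM, while DCN and CDH5 had at most 1 read in any library. The part of these markers in the results was not tested.

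**Figure D3:**
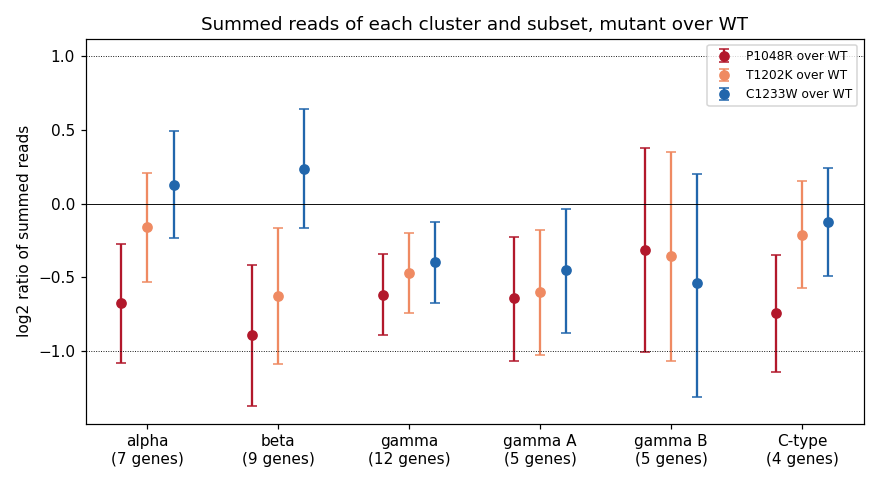
log2 ratio of the reads summed over each cluster and subset, each mutant over WT, with 95% counting intervals; dotted lines mark 2-fold. P1048R lies below 0 for each of the 3 clusters (-0.68 for alpha, -0.89 for beta, -0.62 for gamma), and the C1233W values of alpha and beta lie above 0 with intervals that contain it.

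In C1233W gamma was lower relative to beta, and alpha higher relative to gamma, than in WT. The ratio of gamma to beta reads within a library, which does not depend on library scaling, was 1.69 in C1233W and 2.62 in WT, an odds ratio of 0.646 (conditional exact 95% interval 0.459 to 0.908). The ratio of alpha to gamma reads was 0.702 in C1233W and 0.488 in WT, an odds ratio of 1.44 (1.05 to 1.98), whose interval reached 0.984 without the C-type genes. Single genes weighed heavily in these ratios: PCDHGA11 had 65 reads in C1233W and 92 in WT, and PCDHB16 had 21 and 6. Without the best-covered member of each cluster, which is PCDHGC3 in gamma, gamma to beta in C1233W was 0.601 (0.401 to 0.898). Ratios without PCDHGA11 or PCDHB16 were not computed. In P1048R the odds ratio was 1.21 (0.823 to 1.78) for gamma to beta and 0.960 (0.682 to 1.35) for alpha to gamma, so an unequal change of the clusters was not detectable there. In T1202K these were 1.11 (0.766 to 1.62) and 1.24 (0.900 to 1.71). Without the member with the most reads in each cluster, alpha to gamma in T1202K was 1.61 (1.02 to 2.55) and alpha to beta was 1.70 (1.002 to 2.89), intervals that leave out 1. For alpha to beta the odds ratios were 1.16 (0.749 to 1.80) in P1048R, 1.38 (0.913 to 2.09) in T1202K and 0.930 (0.636 to 1.36) in C1233W.

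By type of gene, the 4 C-type members summed to 96 reads in P1048R, 132 in T1202K, 128 in C1233W and 126 in WT, and PCDHGC3 held most of these. Their log2 ratio to WT was -0.74 (-1.14 to -0.35) in P1048R, -0.21 (-0.57 to 0.15) in T1202K and -0.12 (-0.49 to 0.24) in C1233W. The 5 gamma A members summed to 89, 87, 88 and 109 reads, with ratios of -0.64, -0.60 and -0.45 and intervals that leave out 0. Most of these reads were from PCDHGA11, and a sum without it was not computed. In C1233W PCDHGA1, PCDHGA10 and PCDHGA4 stood above WT, at 1.13, 0.75 and 0.22. PCDHGA9 stood below it, at -0.77, and the intervals of these genes contain 0. The 5 gamma B members, with 38, 35, 28 and 37 reads, had intervals that contain 0 in each comparison.

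The same gene led the alpha reads in every library, and the same pair the gamma reads. PCDHGC3 took 36.5% of the gamma reads in P1048R (exact interval 29.8% to 43.5%), 40.8% in T1202K, 42.4% in C1233W and 38.9% in WT (32.8% to 45.4%). PCDHGA11 took 35.5%, 33.3%, 31.7% and 37.7%. PCDHA10 took 53.7%, 47.3%, 54.9% and 58.0% of the alpha reads. The intervals of these shares overlapped between libraries. PCDHAC2 took 11.6% of the alpha reads in P1048R (5.92% to 19.8%), 20.9% in T1202K (14.3% to 29%), 16.0% in C1233W (10.4% to 23.0%) and 9.24% in WT (4.71% to 15.9%). In the beta cluster the gene with the most reads was PCDHB13 in P1048R and WT, PCDHB2 in T1202K and PCDHB15 in C1233W. These leads were small: in T1202K PCDHB2 had 16 reads and PCDHB13 had 13. In C1233W PCDHB15 had 25 and PCDHB13 had 22, and in WT PCDHB13 had 18 and PCDHB14 had 16. The share intervals of these genes overlapped, as in T1202K with 13.1% to 33.1% for PCDHB2 and 9.84% to 28.5% for PCDHB13. PCDHB13 took 25.0%, 17.8%, 18.2% and 19.4% of the beta reads in P1048R, T1202K, C1233W and WT. PCDHB2 took 10.9%, 21.9%, 8.26% and 14.0%, and PCDHB15 took 14.1%, 13.7%, 20.7% and 16.1%. PCDHB16 took 10.9%, 16.4%, 17.4% and 6.45%, and PCDHB14 took 17.2%, 6.85%, 8.26% and 17.2%.

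**Figure D4:**
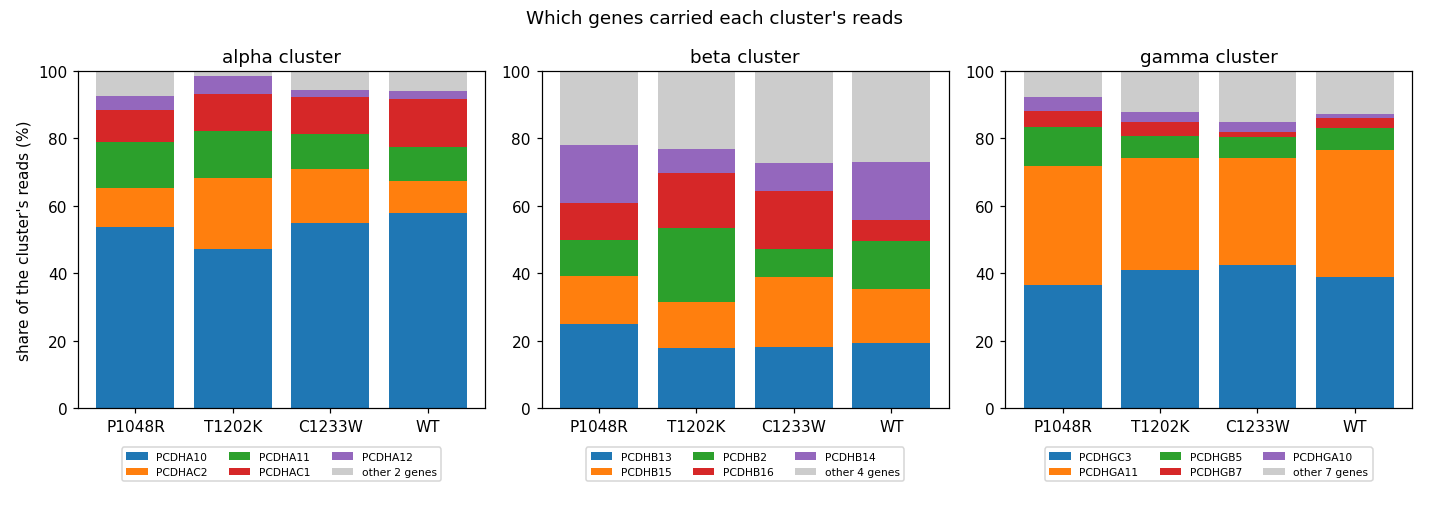
Share of each cluster's reads, in percent, carried by its 5 best-covered genes and by the rest, 1 bar per library. PCDHA10 holds 47.3% to 58.0% of alpha reads and PCDHGC3 with PCDHGA11 most of the gamma reads in every library, while no beta gene exceeds 25.0%.

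The mutants were also set against each other, which leaves WT out. Between C1233W and P1048R, 4 of 28 members passed, all higher in C1233W, against 4.33% of all genes and 809 of the 9197 genes in the members' read range. They were PCDHB8 with 13 reads in C1233W and 2 in P1048R (log2 ratio 2.64, 0.77 to 6.10), PCDHB16 with 21 and 7 (1.73, 0.50 to 3.27), PCDHB15 with 25 and 9 (1.63, 0.53 to 2.97) and PCDHAC2 with 23 and 11 (1.24, 0.18 to 2.46). The beta sum was 2.18 times as high in C1233W as in P1048R (log2 ratio 1.12, 0.68 to 1.59), the only cluster sum past 2-fold in any comparison. Alpha was at 0.81 (0.42 to 1.2) and gamma at 0.22 (-0.07 to 0.51).

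Between C1233W and T1202K, 1 of 28 members passed, against 3.55% of all genes and 671 of the 9197. It was PCDHB15, with 25 reads in C1233W and 10 in T1202K (log2 ratio 1.41, 0.35 to 2.68), and the beta sum was at 0.86 (0.43 to 1.30). Between T1202K and P1048R, 2 of 28 passed, against 1.45% of all genes and 289 of the 9197, and both were higher in T1202K. PCDHAC2 had 27 reads in T1202K and 11 in P1048R (1.33, 0.31 to 2.53). PCDHGB6 had 6 and 0 reads, 2.11-fold higher with the 0 set to the floor of 3 reads. The lower end of its counting interval was a log2 ratio of 0.31.

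Genes that work with or beside the clusters were read from lists chosen with earlier results of these data known. Of 26 regulators of the clusters, none passed the size rule against WT with any mutant. The shares over all genes were 6.62% in P1048R, 4.68% in T1202K and 4.93% in C1233W, and are the background for the lists below too. A count of none among 26 lies near these shares. The regulators' median log2 ratios were -0.07 in P1048R, -0.09 in T1202K and -0.08 in C1233W. CTCF, which binds the promoters and enhancers, had 986 reads in P1048R, 1007 in T1202K, 1095 in C1233W and 1277 in WT, or log2 ratios of -0.73, -0.62 and -0.37. The cohesin subunits RAD21 and SMC1A were below WT with each mutant. RAD21 had ratios of -0.42, -0.42 and -0.24 in P1048R, T1202K and C1233W, and SMC1A had -0.55, -0.49 and -0.49. In the same order SMC3 had 0.01, -0.37 and -0.18, STAG2 had -0.12, -0.25 and -0.07, and STAG1 had 0.24, 0.11 and -0.27. The repressors ZNF274, EHMT2 and SETDB1 had the highest ratios of the list in P1048R, at 0.59, 0.50 and 0.44. Repressors did not move together there, with EHMT1 at 0.02, TRIM28 at -0.12 and REST at -0.29. SMCHD1, which represses the clusters in mouse, had 0.23, 0.01 and -0.13.

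Of 24 partners and processing enzymes, CELSR3 alone passed, higher in each mutant. CELSR3 is an atypical cadherin of neurons, and had 718 reads in P1048R, 474 in T1202K, 409 in C1233W and 140 in WT, or log2 ratios of 2.0, 1.48 and 1.40. The list's medians were -0.09, -0.08 and 0.04. Of the non-clustered protocadherins, which lie outside the 3 arrays and have no constant exons in common with them, 10 of 12 were tested. PCDH8 was higher in P1048R and T1202K, with 26, 20 and 16 reads in the mutants and 6 in WT (1.67, 1.38 and 1.2, of which the last, in C1233W, did not pass). PCDH17 was lower in P1048R, with 97, 101, 158 and 166 reads (-1.13, -0.99 and -0.22). Medians over that list were -0.31, -0.15 and 0.21.

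Genes that flank or interrupt the arrays on chromosome 5 were also read. Of 26 neighbours 23 were tested, and 1 passed, RELL2 in T1202K. RELL2 had 113 reads in P1048R, 114 in T1202K, 96 in C1233W and 45 in WT, with log2 ratios of 0.97, 1.05 and 0.94. It was thus higher in each mutant, and just under 2-fold in P1048R and C1233W. TAF7, between the beta and gamma clusters, had 2020 reads in P1048R, 2001 in T1202K, 1775 in C1233W and 2001 in WT, with ratios of -0.34, -0.28 and -0.32. DIAPH1, beyond the 3′ end of gamma, had 2903, 2882, 2753 and 2648 reads, with ratios of -0.22, -0.15 and -0.09. SLC25A2, also between beta and gamma, had 1 read in WT and 0 in the mutants. The neighbours' medians were -0.22, -0.09 and -0.25. Of 6 clustered pseudogenes in the deposited counts, 2 were tested and neither passed: PCDHB18P had 10, 6, 10 and 11 reads and PCDHB19P had 3, 0, 5 and 3. The neuronal markers did not move together: GAP43 was lower in P1048R and T1202K, MAP2 lower in P1048R, SNAP25 higher in P1048R and T1202K and RBFOX3 higher in C1233W.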

How the data were processed

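RNA-seq counts of 4 libraries, 1 per construct, were used. The deposited values are whole-number read counts per gene without normalization. The submitters' processing notes name Trim Galore, HISAT2, featureCounts and hg38, and the kit is stranded per the labels' protocols. The sources used here do not give versions, annotation release, strand setting or multi-mapping rule. All 58735 gene IDs matched GENCODE 29 (GRCh38), 58422 with the same symbol.

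Library sizes were scaled by TMM (edgeR 4.0.16, R 4.3.3) over all rows, with factors of 1.07 for P1048R, 1.03 for T1202K, 0.999 for C1233W and 0.912 for WT. Intervals of ratios were Clopper-Pearson (the share 1 library holds of a pair's reads), and those of levels exact Poisson (SciPy 1.17.1, Python 3.11.15). Genes named are the 6 best-covered members per cluster, those past the size rule, the C-type genes, PCDHB1, members within 5 reads of the threshold, and the genes past the rule in each list with TAF7, SLC25A2 and DIAPH1. Others were named after their values were seen. Members and lists were chosen with earlier results of these data known. Alternatives covered scaling (DESeq2 1.42.0 size factors among them), filters, added counts, thinning, GC and length, and the fold threshold.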

Additional observations from a re-analysis of the deposited data

How the results depend on the processing

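Of 149 alternative values for counts of members, cluster sums, cluster ratios and levels, 8 moved: a count by over 1.5 times, or a sum, ratio or level outside the 95% counting interval of its reported value. The other 141 did not. Among the 99 alternatives for sums and ratios, 3 changed direction, each where the reported interval already contained the point of no difference: alpha in T1202K, to 0.01 on total counts and 0.16 without PCDHA10, and alpha to gamma in P1048R, to 1.02 without the best-covered members. In 6 of the 99 the interval came to contain or to leave out that point; the report gives each. Among 360 alternatives for single members 9 changed direction, none of a gene past the size rule. PCDHAC1 in P1048R dropped out on total counts (-1.01) and DESeq2 size factors (-1.19), and PCDHAC2 in T1202K came in on total counts (1.16). At 1.5-fold, 6 members passed in P1048R (PCDHA10, PCDHAC1, PCDHB8, PCDHGB6, PCDHGA11 and PCDHGC3, all lower), 2 in T1202K and 2 in C1233W (PCDHGA11, lower, in both), and 1, PCDHGA11, was higher in WT than in each mutant. The share of all genes that pass at 1.5-fold was not computed, so these counts have no background to be read against. On total counts 2 passed in T1202K, with PCDHAC2 joining, and on thinned counts 1 passed between T1202K and P1048R. The cause of these 2 changes was not tested. Total counts shifted the median of all genes to 0.18, 0.15 and 0.13 in P1048R, T1202K and C1233W, against -0.05, -0.02 and 0.00 by TMM. Per whole exonic length the WT level was 0.229 in place of 0.412 CPM per kilobase in alpha and 0.402 in place of 0.684 in gamma, because shared constant exons then lengthen each gene. Between-mutant alternatives and sums that include genes under 10 reads were chosen after seeing the data. No paired analysis was possible because each construct has 1 library. Depth limits single members most: 19 of 28 had under 50 reads over the 4 libraries.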
